A study of Mus musculus with 48 samples.

Results

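Wnt proteins, their Frizzled receptors and 2 families of secreted antagonists, Sfrp and Dkk, were followed through 16 populations of mouse hippocampal neurons. The members were all genes whose symbols are Wnt, Fzd, Sfrp or Dkk followed by a family number: 19 Wnt, 10 Fzd, 4 Sfrp and 4 Dkk genes, 37 of the 37620 genes counted. The pattern of symbols, not any measured value, chose them, though it was set with earlier results of these data known. Each population was represented by 3 RNA sequencing libraries. Of the 16 populations, 10 were CA1 pyramidal cells, named by place (dorsal, intermediate, ventral, proximal, distal, superficial, deep) or by target, with postsubiculum-projecting cells from dorsal CA1 and amygdala- and accumbens-projecting cells from ventral CA1. CA3 pyramidal cells and granule cells of the dentate gyrus (DG) gave a dorsal and a ventral population each, and the last pair were CA1 interneurons positive for parvalbumin (PV) or somatostatin (SST). All were fluorescent neurons picked by hand from dissected slices, and each library is RNA from a pool of such cells. The mouse lines, ages, sexes and labelling methods, and whether the 3 libraries, described as biological replicates, came from separate animals, were not given in the sources used here. The p-values therefore cover no more than the variation among these libraries.

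Wnt ligands are lipid-modified secreted proteins that act over short distances. They bind Frizzled receptors together with the co-receptors Lrp5 and Lrp6, which stabilises β-catenin for transcription with TCF/LEF factors, or act through β-catenin-independent routes such as planar cell polarity. Sfrp proteins carry a Frizzled-like domain and bind Wnts outside the cell. Dkk1 and its close relatives block the Lrp co-receptors, whereas Dkk3 is a divergent member whose own receptor is less clear. In the hippocampus Wnt signals are known for roles in regional patterning of the embryo, dendrite growth, synapse assembly and neurogenesis in the adult DG.

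Reads in genes ranged from 5.12 M to 31.98 M per library (M, 1e6 reads). Marker genes were read against the labels. DG granule cells had Prox1 at a mean of 1198 CPM (read counts scaled to library size) in dorsal and 1393 in ventral cells, and the GABA-synthesis gene Gad2, which marks GABAergic cells of any class, had a mean of 4723 CPM in SST and 2731 in PV cells. Pvalb was at 368, 315 and 304 CPM in PV libraries and 18.9, 54.5 and 1.57 in SST libraries. Sst was at 920.1, 795 and 239.6 CPM in PV libraries, above Pvalb in 2 of those 3, and at 3681, 3590 and 6683 in SST libraries. A list of 4 CA1 genes summed to 431.5 to 2204 CPM over the CA1 pyramidal libraries and to at most 143 in the others, although Pou3f1, which is on it, was at 0 in every population. Some pyramidal libraries also held interneuron transcripts. Gad2 was at 115, 374 and 570.2 CPM in the 3 deep CA1 libraries, 11.6, 12.4 and 99.3 in superficial, 44.7, 1.93 and 1.47 in proximal and 12.9, 11.4 and 14.4 in ventral CA1, against 0, 0.0674 and 1.41 in dorsal CA1. In the ventral CA1 libraries 4 fibroblast markers summed to 254.8 to 417 CPM, nearly all of it Dcn, against 0.119 to 3.18 in dorsal CA1. Whether other cells or true expression gave these reads was not tested.

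Promoters are shown for 3 ligands on which the CA1 results turn, Wnt2 and Wnt11 (higher in dorsal cells) and Wnt7a (higher in ventral, proximal and superficial cells). Each is the 250 bases before the gene's start in RefSeq on GRCm38.p6, read 5′ to 3′ on the gene's strand: chr6:18030446-18030695 (minus strand) for Wnt2, chr7:98834862-98835111 (plus strand) for the first of the starts of Wnt11, and chr6:91411354-91411603 (minus strand) for Wnt7a. Capitals mark GC boxes (GGGCGG) in all of them and, in Wnt11, also a TCF/LEF match (CTTTGAA or CTTTGAT) and a TATAAA, on either strand. Neighbouring GC boxes may share a base.
Wnt2: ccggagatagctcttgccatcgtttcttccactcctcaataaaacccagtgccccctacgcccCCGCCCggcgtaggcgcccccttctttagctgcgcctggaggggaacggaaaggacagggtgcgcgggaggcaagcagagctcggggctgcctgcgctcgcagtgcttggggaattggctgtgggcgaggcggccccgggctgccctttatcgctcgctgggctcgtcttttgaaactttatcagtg
Wnt11: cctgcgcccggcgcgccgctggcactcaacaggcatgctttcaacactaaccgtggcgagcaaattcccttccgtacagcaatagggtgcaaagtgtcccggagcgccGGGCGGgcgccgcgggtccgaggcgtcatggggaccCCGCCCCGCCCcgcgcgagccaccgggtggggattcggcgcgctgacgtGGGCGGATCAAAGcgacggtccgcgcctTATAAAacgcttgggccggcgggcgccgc
Wnt7a: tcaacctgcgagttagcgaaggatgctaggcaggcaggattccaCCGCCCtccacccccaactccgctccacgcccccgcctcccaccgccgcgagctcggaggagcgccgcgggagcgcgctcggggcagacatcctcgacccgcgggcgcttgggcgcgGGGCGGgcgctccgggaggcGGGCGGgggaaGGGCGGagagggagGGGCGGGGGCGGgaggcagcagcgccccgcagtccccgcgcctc
The Wnt7a promoter was the richest of the 3 in G and C (77.6%, against 70.8% in Wnt11 and 63.6% in Wnt2) and held 6 GC boxes, against 4 in Wnt11 and 1 in Wnt2. The TCF/LEF letters appeared once in the Wnt11 window and in neither of the others. Promoter entries existed for 25 of the 37 members, 28 windows in all, and 3 of the 28 held the TCF/LEF letters (Dkk1, Wnt11 and Wnt5b), against 7.48% of all 32851 promoters of this length. GC boxes were in 20 of the 28, against 32.7% of all promoters, and TATAAA in 4 of the 28, against 12.4%. These matches are letters in a window and were not tied to the measurements. Dkk3, Dkk4, Fzd2, Fzd3, Fzd6, Fzd8, Sfrp1, Sfrp4, Wnt5a, Wnt7b, Wnt8a and Wnt10a had no entry.

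Of the 37 members, 26 reached a mean of 1 CPM in at least 1 population, and between 10 and 16 did so in any single population. Dkk3, Fzd3 and Wnt2b reached it in all 16. To compare genes with each other, levels per length were taken from the authors' FPKM table (fragments per kilobase of transcript, scaled to library depth). On that scale Fzd3, a Frizzled known for axon guidance and planar polarity, was the highest Frizzled in 16 of 16 populations and held 58.6% (PV) to 95.9% (deep CA1) of the summed Frizzled level. Dkk3 was the highest Dkk in 16 of 16. The leading Wnt differed between populations. Wnt2 led in 7: dorsal, proximal, distal, superficial, deep and postsubiculum-projecting CA1 and dorsal CA3. Wnt4 led in ventral, amygdala- and accumbens-projecting CA1 and in ventral DG, Wnt7b in ventral CA3 and dorsal DG, Wnt7a in intermediate CA1 and SST cells, and Wnt5b in PV cells. Many of these leads were narrow: in ventral DG Wnt4 was at 9.44 ± 3.58 FPKM and Wnt7b at 9.13 ± 2.37 (mean ± SD, n = 3), and in dorsal CA3 Wnt2 was at 1.67 ± 1.28 FPKM and Wnt10a at 1.52 ± 0.612. Wide leads included those of Wnt2 in distal CA1 (15.2 ± 3.84 FPKM, with Wnt9a next at 2.46 ± 1.41) and Wnt7a in SST cells (12.2 ± 3.35 FPKM, with Wnt5a next at 3.43 ± 2.67). By means they also included Wnt2 in deep CA1 (14.3 ± 5.8 FPKM, with Wnt4 next at 4.68 ± 2.05) and Wnt7b in dorsal DG (8.88 ± 5.31 FPKM, with Wnt9a next at 1.76 ± 2.09).

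**Figure D1:**
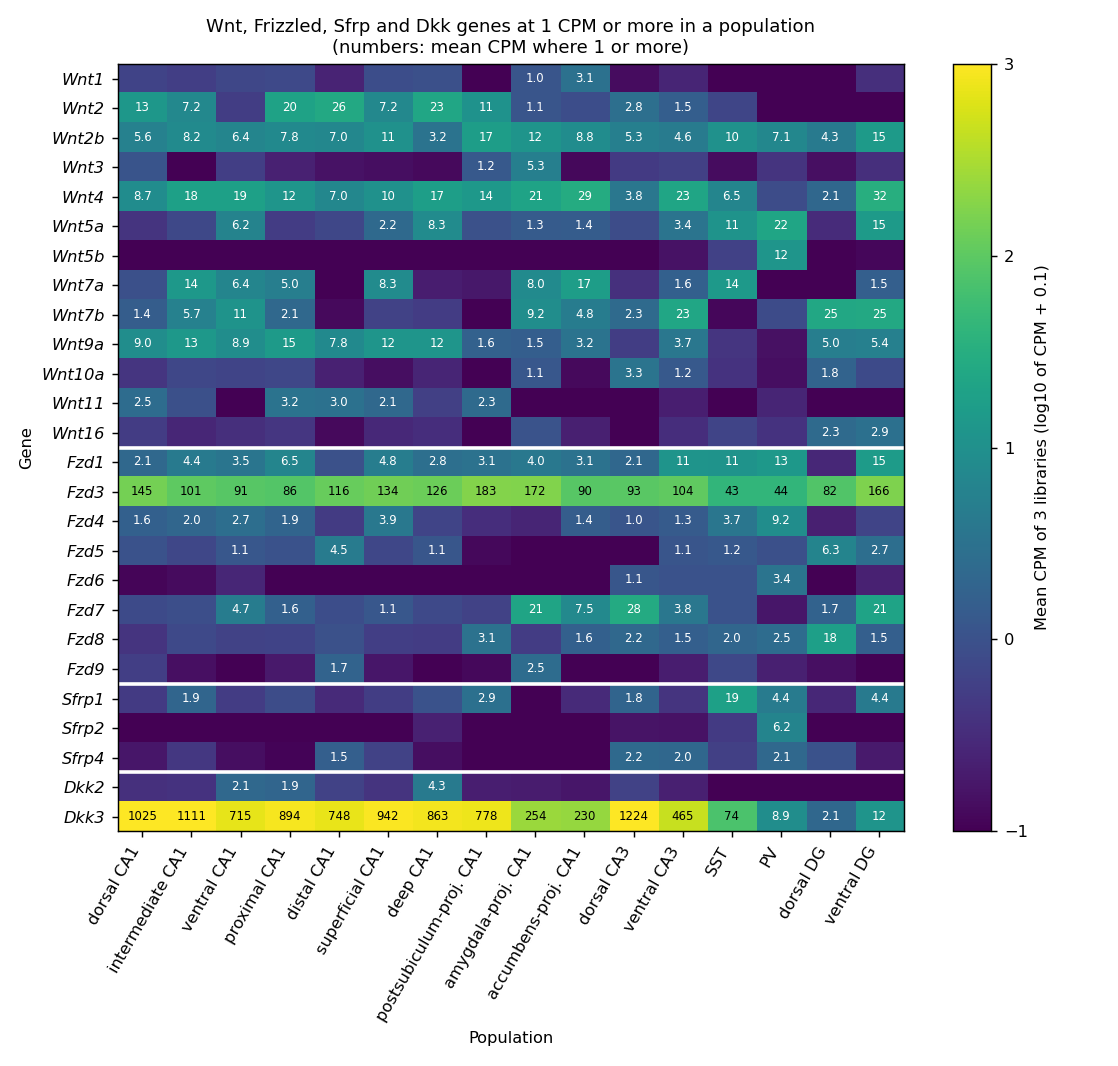
Mean level of the 26 members that reached 1 CPM in a population, by gene (rows, grouped as Wnt, Fzd, Sfrp and Dkk) and population (columns). Colour is log10 of mean CPM + 0.1 over 3 libraries, and numbers give the mean CPM where it is 1 or more. Fzd3 and Dkk3 are the rows with high values in most columns, and most Wnt genes are above 1 CPM in only some columns.

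The lowest members were read rarely. Wnt8b had no read in 48 libraries, and the other 10 that stayed under 1 CPM in every population were Dkk1, Dkk4, Fzd2, Fzd10, Sfrp5, Wnt3a, Wnt6, Wnt8a, Wnt9b and Wnt10b, with highest population means from 0.0213 CPM (Fzd2, deep CA1) to 0.801 (Dkk4, postsubiculum-projecting CA1). Wnt3a, the ligand known for hippocampal specification in the embryo, had 29 reads in all, from 2 libraries. Several members above 1 CPM rested on a single library. Wnt3 reached 5.296 ± 9.17 CPM in amygdala-projecting cells from libraries at 0, 15.9 and 0, and Wnt1 reached 3.06 ± 5.302 in accumbens-projecting cells from 9.18, 0 and 0. Fzd9 was at 0, 7.57 and 0 CPM in amygdala-projecting and 3.04, 0.0836 and 2.11 in distal CA1 libraries, its only populations above 1 CPM. Sfrp1, highest in SST cells, was uneven there too, at 31.9, 23.1 and 0.6397 CPM.

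Along the long axis of CA1, dorsal cells had more Wnt2 and Wnt11 and ventral cells more Wnt7a, Wnt7b and Wnt5a. These ligands thus split into groups with opposite direction. Not every ligand did: dorsal and ventral means were 8.999 and 8.899 CPM for Wnt9a and 5.589 and 6.401 for Wnt2b. Of 15 members that passed the filter on low counts, 7 were called between dorsal and ventral CA1 at an adjusted p under 0.05 (edgeR quasi-likelihood test), against 15.1% of all genes tested. In dorsal cells 4 were higher (7.17% of all genes) and in ventral cells 3 (7.95%). The median log2 difference of the 15 was -0.34, against -0.007 over all genes.

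Wnt2 was at 17.97, 11.1 and 9.23 CPM in the dorsal, 7.82, 4.21 and 9.44 in the intermediate and 0.127, 0.367 and 0.808 in the ventral libraries. Every ventral library was below every dorsal and intermediate library, and dorsal and intermediate values overlapped. The ventral libraries held 10 reads in all, and both dorsal (log2 difference 4.77, SE 0.66, adjusted p = 3.72e-05) and intermediate cells (log2 difference 3.96, SE 0.66, adjusted p = 8.88e-04) were called higher than ventral cells, while dorsal and intermediate cells were not called apart (log2 difference 0.81, SE 0.52, adjusted p = 0.4901). In bulk RNA of pooled cells, fewer cells with a transcript and less transcript per cell cannot be told apart. Wnt11, a ligand known for β-catenin-independent signalling, was at 1.47, 1.72 and 4.27 CPM in dorsal libraries, 2.31, 0.0935 and 0.115 in intermediate libraries and 0 in the 3 ventral libraries. Against a floor of 3 reads per library this is at least 5.85-fold higher in dorsal cells (adjusted p = 0.0164). The call was lost without dorsal replicate 3 or without ventral replicate 3 (adjusted p up to 0.0717).

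The ventral ligands followed different courses. Wnt7a, known for promoting presynaptic assembly, was at 0.436, 1.38 and 0.728 CPM in dorsal, 17.9, 17.1 and 6.103 in intermediate and 3.79, 5.32 and 10.2 in ventral libraries. Its highest values were thus in intermediate cells, with dorsal libraries below all of both other groups. The difference was 7.57-fold between ventral and dorsal cells (log2 difference -2.95, SE 0.61, adjusted p = 0.00185) and 16.2-fold between intermediate and dorsal cells (log2 difference -4.02, SE 0.63, adjusted p = 5.77e-04). On the FPKM scale Wnt7a was at 1.31 ± 1.81 in dorsal and 4.19 ± 1.44 in ventral CA1, and the highest dorsal value (3.41) was above the lowest ventral one (3.14). Wnt7b, known for dendrite growth, was at 0.278, 1.62 and 2.37 CPM in dorsal, 4.63, 6.36 and 5.99 in intermediate and 5.31, 12.7 and 15.2 in ventral libraries. Dorsal libraries were the lowest, and intermediate and ventral values overlapped. It was 7.796-fold higher in ventral than dorsal cells (log2 difference -3.00, SE 0.67, adjusted p = 0.00353). Wnt5a, a ligand of the Ror receptors, was at 0.397, 0.168 and 0.318 CPM in dorsal, 0.434, 0.187 and 1.27 in intermediate and 5.69, 3.299 and 9.47 in ventral libraries. High values were found in the ventral libraries, 20.9-fold above dorsal cells (log2 difference -4.40, SE 0.99, adjusted p = 0.00378), and intermediate against ventral cells did not pass the threshold (log2 difference -3.30, SE 0.96, adjusted p = 0.0542). Gad2 was at 11, 12.2 and 8.87 CPM in the intermediate libraries, between the dorsal and ventral values given above. Dcn was at 0.119, 0.0674 and 3.18 CPM in dorsal, 2.17, 63.4 and 7.83 in intermediate and 408, 251 and 391 in ventral libraries. The part of such transcripts in the differences was not tested.

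Dkk3 and Fzd3 had small differences at high levels. Dkk3 was at 992, 1026 and 1059 CPM in dorsal, 1195, 979 and 1158 in intermediate and 719, 788 and 639 in ventral libraries, so ventral cells were the lowest. It was 1.43-fold higher in dorsal than ventral cells (log2 difference 0.47, SE 0.10, adjusted p = 0.00158) and 1.55-fold higher in intermediate than ventral cells (log2 difference 0.62, SE 0.10, adjusted p = 5.06e-04). Fzd3 was at 147, 126 and 161 CPM in dorsal and 88.02, 83.03 and 102 in ventral libraries, a 1.59-fold difference (log2 difference 0.62, SE 0.16, adjusted p = 0.00875) that was lost without dorsal replicate 3 (adjusted p = 0.0529). Between dorsal and intermediate cells Wnt7a was the 1 member called, against 4.93% of all genes, and between intermediate and ventral cells the calls were Wnt2 and Dkk3, against 5.03%. These comparisons share libraries. Wnt4 (10.3, 12.03 and 3.82 CPM in dorsal and 11.2, 27.7 and 17.8 in ventral libraries) and Fzd7 (0.476, 0.674 and 0.955 and 3.29, 4.22 and 6.58) did not pass the threshold between dorsal and ventral cells (adjusted p = 0.0695 and 0.0783). When all 48 libraries were fitted together, which assumes 1 spread for all populations, Wnt2 was the only one of the 7 that stayed called between dorsal and ventral CA1.

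**Figure D2:**
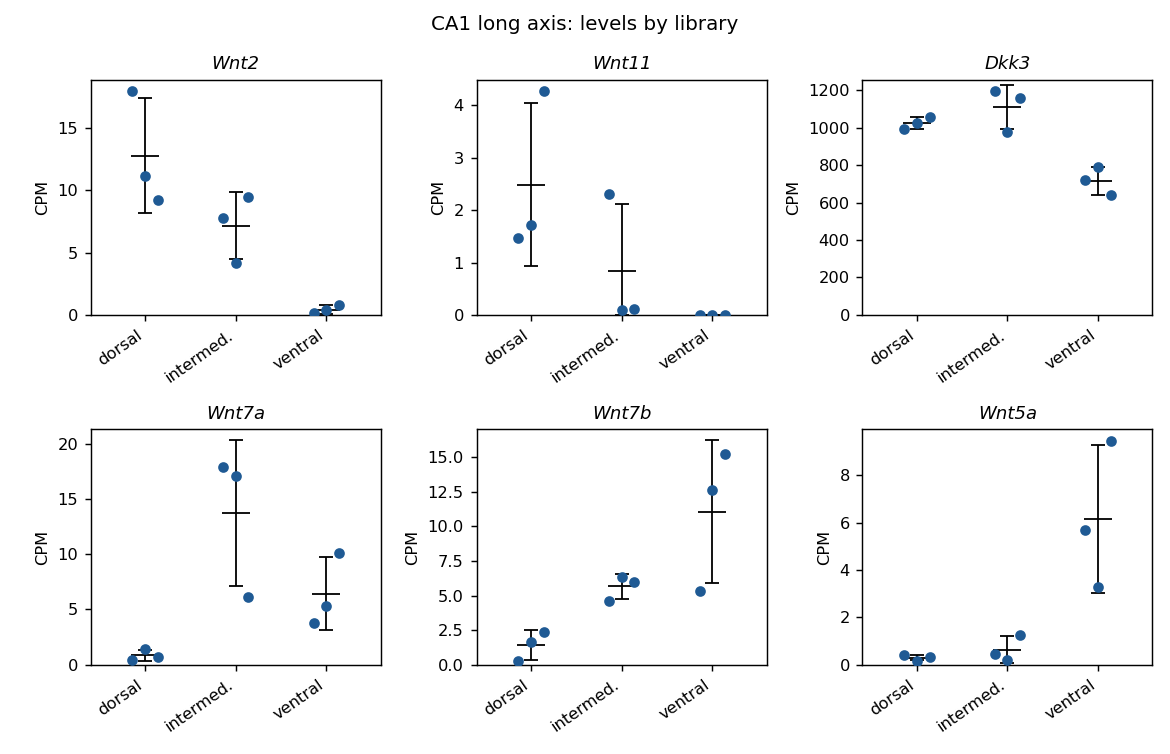
CPM of 6 members in the 3 libraries of dorsal, intermediate and ventral CA1. Points are libraries, the long bar is the mean and the whiskers are 1 SD, cut at 0. Wnt2 and Wnt11 are lowest in ventral cells, Wnt7a and Wnt7b are lowest in dorsal cells, Wnt5a is high in ventral cells, and Wnt7a has its highest points in intermediate cells.

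Wnt7a also differed along the other axes of CA1. Between proximal cells (toward CA3) and distal cells (toward the subiculum) it was the 1 called member of 14 tested, against 1.06% of all genes. It was at 1.83, 4.69 and 8.36 CPM in the proximal libraries and had no read in the 3 distal libraries. All proximal values were above the distal ones, at least 39-fold by means (adjusted p = 0.0261). Between superficial and deep cells of the pyramidal layer it was again the 1 called member, of 15, against 2.48% of all genes. It was at 8.99, 14.1 and 1.78 CPM in superficial and 0.256, 0 and 0.0814 in deep libraries, with no overlap and 5 reads in all in the deep libraries (log2 difference 6.01, SE 1.20, adjusted p = 0.0225). Both calls were fragile. The first was lost in 5 of 6 omissions of 1 library, those other than proximal replicate 1 (adjusted p up to 0.136). The second was lost without superficial replicate 1, superficial replicate 2 or deep replicate 3 (up to 0.185). Gad2 was higher in the deep libraries, where Wnt7a was low, and Pvalb was at 81.3, 0.0988 and 0.1799 CPM in proximal and 10.6, 15.1 and 12.9 in distal libraries.

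Wnt2 between superficial and deep cells and Wnt7b between proximal and distal cells had separated values without passing the threshold. Wnt2 was at 5.03, 9.35 and 7.21 CPM in superficial and 15.1, 32.1 and 22.9 in deep libraries, with every deep library above every superficial one (log2 difference -1.74, SE 0.44, adjusted p = 0.0689). In proximal and distal cells Wnt2 was at 33.5, 16.6 and 11.1 and 29.4, 29.2 and 18.7 CPM, and these overlapped. Wnt7b was at 2.63, 1.33 and 2.46 CPM in proximal and 0.0385, 0 and 0.0469 in distal libraries (log2 difference 6.03, adjusted p = 0.08396). Wnt7a and Wnt2 thus had opposite order in dorsal against ventral and in superficial against deep cells, the latter for Wnt2 without a call. These are values set side by side and not a test of their relation.

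Among cells defined by their target, no member of 15 tested was called between amygdala- and accumbens-projecting cells by edgeR, against 0.0231% of all genes. At an unadjusted p under 0.05 there was 1, Fzd3, and DESeq2 called 1. Fzd3 was at 146, 171 and 200.5 CPM in amygdala-projecting and 90.9, 84.8 and 94.9 in accumbens-projecting libraries, with no overlap (log2 difference 0.93, SE 0.24, adjusted p = 0.326). Wnt7a spread widely in these cells, at 10.2, 9.13 and 4.804 CPM in amygdala-projecting and 45.6, 4.84 and 0.5502 in accumbens-projecting libraries. Sst was at 5.75, 0.367 and 516 CPM in the accumbens-projecting libraries, and 5 endothelial markers summed to 52.9 CPM or more (median 72.5) in amygdala-projecting and 12.2 to 56.2 CPM in accumbens-projecting libraries, which overlapped. Nearly all of this was Kdr, at 67.7, 31.3 and 96.2 CPM in amygdala-projecting and 43.1, 10.9 and 53.7 in accumbens-projecting libraries, and Cldn5 was at 0 in both. Dkk3 was at 185, 309 and 269 CPM in amygdala-projecting and 247, 293 and 151 in accumbens-projecting libraries, below the ventral CA1 libraries, a difference that was not tested.

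Postsubiculum-projecting cells were set against dorsal CA1 cells in general, and 2 of 12 tested members were called, against 10.8% of all genes. Wnt2b, a ligand close in sequence to Wnt2, was at 13.4, 15.9 and 21.01 CPM in postsubiculum-projecting and 5.91, 4.58 and 6.28 in dorsal libraries, 3.003-fold higher with no overlap (log2 difference 1.61, SE 0.44, adjusted p = 0.0405). The call was lost in 5 of 6 omissions of 1 library, those other than postsubiculum-projecting replicate 1 (adjusted p up to 0.187), and without the filter on low counts. Dkk3 was at 739, 777 and 819 CPM in postsubiculum-projecting libraries, all below the dorsal CA1 libraries (log2 difference -0.38, SE 0.08, adjusted p = 0.0129), which was no longer called without dorsal replicate 2 or 3 (up to 0.0618). Wnt2 was at 2.73, 19.97 and 9.54 CPM in these cells and Wnt11 at 1.49, 3.65 and 1.797, and neither was called against dorsal cells. Postsubiculum-projecting replicate 2 held Gad2 at 58.2 CPM.

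**Figure D3:**
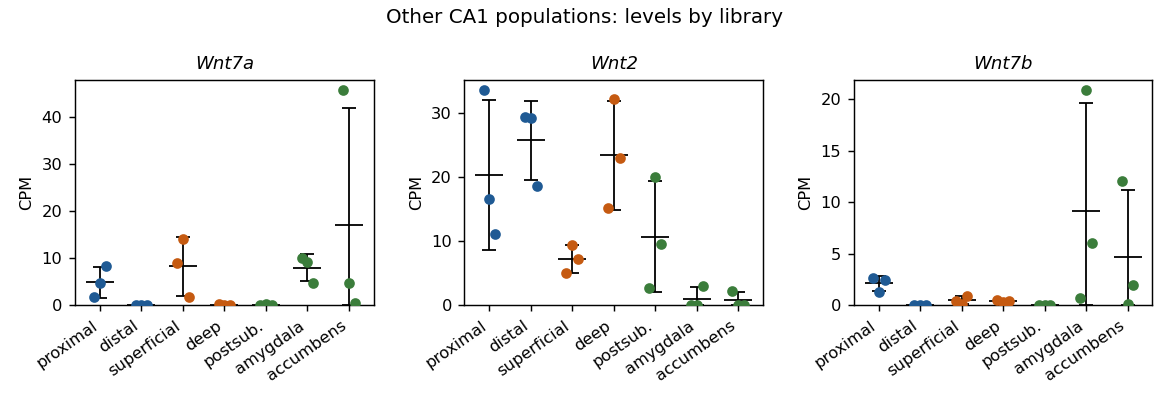
CPM of Wnt7a, Wnt2 and Wnt7b in the 3 libraries of 7 other CA1 populations (proximal, distal, superficial, deep, and cells projecting to the postsubiculum, amygdala or accumbens). Points are libraries, the long bar is the mean and the whiskers are 1 SD, cut at 0. Wnt7a is at or near 0 in distal, deep and postsubiculum-projecting cells, and Wnt2 is low in both populations from ventral CA1.

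The long axis of CA3 and of the DG was compared in the same way. In CA3, 2 of 23 tested members were called between dorsal and ventral cells, against 4.97% of all genes. Dkk3 was at 1206, 1212 and 1255 CPM in dorsal and 432, 462 and 501 in ventral CA3, with dorsal libraries all higher and 2.63-fold by means (log2 difference 1.42, SE 0.19, adjusted p = 6.21e-05). Wnt7b was at 2.196, 2.85 and 1.78 CPM in dorsal and 30.3, 26.7 and 11.4 in ventral CA3, with ventral libraries all higher and 10.02-fold by means (log2 difference -3.30, SE 0.67, adjusted p = 0.00362). The number called depended on the DG libraries, which share the fit: 5 to 6 members were called when any 1 dorsal DG library was left out, and DESeq2 called 7. Among those not called, Fzd7 was at 22.1, 23.8 and 38.3 CPM in dorsal and 4.64, 4.09 and 2.72 in ventral CA3 (adjusted p = 0.0818), and Wnt4 at 3.48, 1.01 and 6.96 and 22.9, 29.7 and 15.1 (0.0977). Markers also differed between these groups. The 2 mossy cell genes, Calb2 and Drd2, summed to at most 3.80 CPM in dorsal and to 77.99 to 354.1 CPM in ventral CA3. The CA3 gene Iyd was at 42.3, 45.99 and 57.4 CPM in dorsal and 0.4598, 0.602 and 0.516 in ventral CA3. The whole list of 3 CA3 genes, Iyd included, summed to 220.2 to 250.9 CPM in dorsal and 104.6 to 116.6 in ventral CA3. The part of these transcripts in the differences was not tested.

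In the DG, ventral granule cells had more of the receptors Fzd1, Fzd3 and Fzd7 and the ligands Wnt4, Wnt5a and Wnt7a. Of 23 tested members 8 were called, against 19.4% of all genes. Of these 7 were higher in ventral cells (10.6% of all genes) and 1 in dorsal cells (8.71%), and the median log2 difference (dorsal minus ventral) was -1.74, against -0.053 over all genes. Fzd1 was at 0.251, 0.272 and 0 CPM in dorsal and 12.4, 23.9 and 9.99 in ventral libraries (log2 difference -6.36, SE 0.93, adjusted p = 6.8e-05). Wnt5a was at 0.628, 0 and 0 CPM in dorsal and 25.8, 13.6 and 5.88 in ventral libraries (log2 difference -6.04, SE 1.12, adjusted p = 7.61e-04). For both genes the groups stood wholly apart, with 4 reads of Fzd1 and 5 of Wnt5a in all in the dorsal libraries. These libraries were also shallower, with 6.78 M to 7.85 M reads in genes and 2.68% to 4.06% of gene and spike-in reads from the ERCC spike-in, against 14.76 M to 16.47 M and 0.969% to 1.33% in ventral DG. Wnt4 was at 0.126, 0.272 and 5.86 CPM in dorsal and 28.9, 22.6 and 45.7 in ventral libraries (log2 difference -3.93, SE 0.91, adjusted p = 0.00475), where dorsal replicate 3 was the highest of its group and still below the ventral libraries. Fzd3 was at 102, 66.2 and 77.7 CPM in dorsal and 125, 185 and 188 in ventral libraries, 2.03-fold (log2 difference -0.98, SE 0.20, adjusted p = 0.00185).

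Fzd7 and Fzd8 rested more on single DG libraries. Fzd7 was at 0, 5.17 and 0 CPM in dorsal and 32.6, 15.96 and 14.9 in ventral libraries (log2 difference -3.59, SE 0.98, adjusted p = 0.0141), a call lost without ventral replicate 1 (adjusted p = 0.0549). Fzd8, the 1 member higher in dorsal DG, was at 8.29, 4.35 and 41.8 CPM in dorsal and 0.6697, 0.985 and 2.97 in ventral libraries (log2 difference 3.58, SE 0.92, adjusted p = 0.00936). The third dorsal library stood far above the others, and the call was lost without it or without ventral replicate 1 (up to 0.1303). Wnt7a had no read in dorsal DG and 1.005, 2.96 and 0.628 CPM in ventral DG, at least 3.85-fold higher (adjusted p = 0.0355), lost in 5 of 18 omissions, each of the 3 dorsal DG libraries and ventral DG replicates 1 and 2 (up to 0.0955). Dkk3 was at 3.64, 1.09 and 1.498 CPM in dorsal and 9.097, 13.8 and 12.7 in ventral DG (log2 difference -2.45, SE 0.26, adjusted p = 1.49e-06), higher in ventral cells, the opposite order to CA1 and CA3. Of markers of other cells, Gad2 was at 26.5, 22.4 and 30.2 CPM in dorsal and 1.23, 8.14 and 2.11 in ventral DG, while the 4 GABAergic markers together summed to 109.4 to 146.6 and 121.2 to 157.5 CPM, which overlapped. The 4 fibroblast markers summed to 2.45 to 4.02 CPM in dorsal and 77.02 to 109.6 in ventral DG, with Dcn at 2.89, 1.495 and 3.95 and 70.7, 95.05 and 70.7. The part of depth and of these transcripts was not tested.

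The difference between regions was tested directly as an interaction of region and long axis. Against CA3, 1 member was called, Fzd7 (difference of log2 differences -5.66, SE 1.32, adjusted p = 0.0153), against 3.52% of all genes. Its means were 28.1 CPM in dorsal and 3.82 in ventral CA3 and 0.702 in dorsal and 4.696 in ventral CA1, and neither difference was called on its own. The call was lost without dorsal CA1 replicate 1 or dorsal CA3 replicate 3. Between CA1 and DG 5 members were called, against 9.71% of all genes. Dkk3 (2.95, adjusted p = 4.57e-06) and Fzd3 (1.63, 9e-04) were dorsal in CA1 and ventral in the DG. Fzd1 (5.63, 0.00308) was ventral in the DG by more than in CA1. Wnt7b (-2.97, 0.0382) was ventral in CA1, with means of 24.6 and 25.4 CPM in dorsal and ventral DG. Fzd8 (-4.38, 0.0387) was dorsal in the DG. The calls of Wnt7b and Fzd8 were lost in 9 and 12 of 18 omissions of 1 library.

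**Figure D4:**
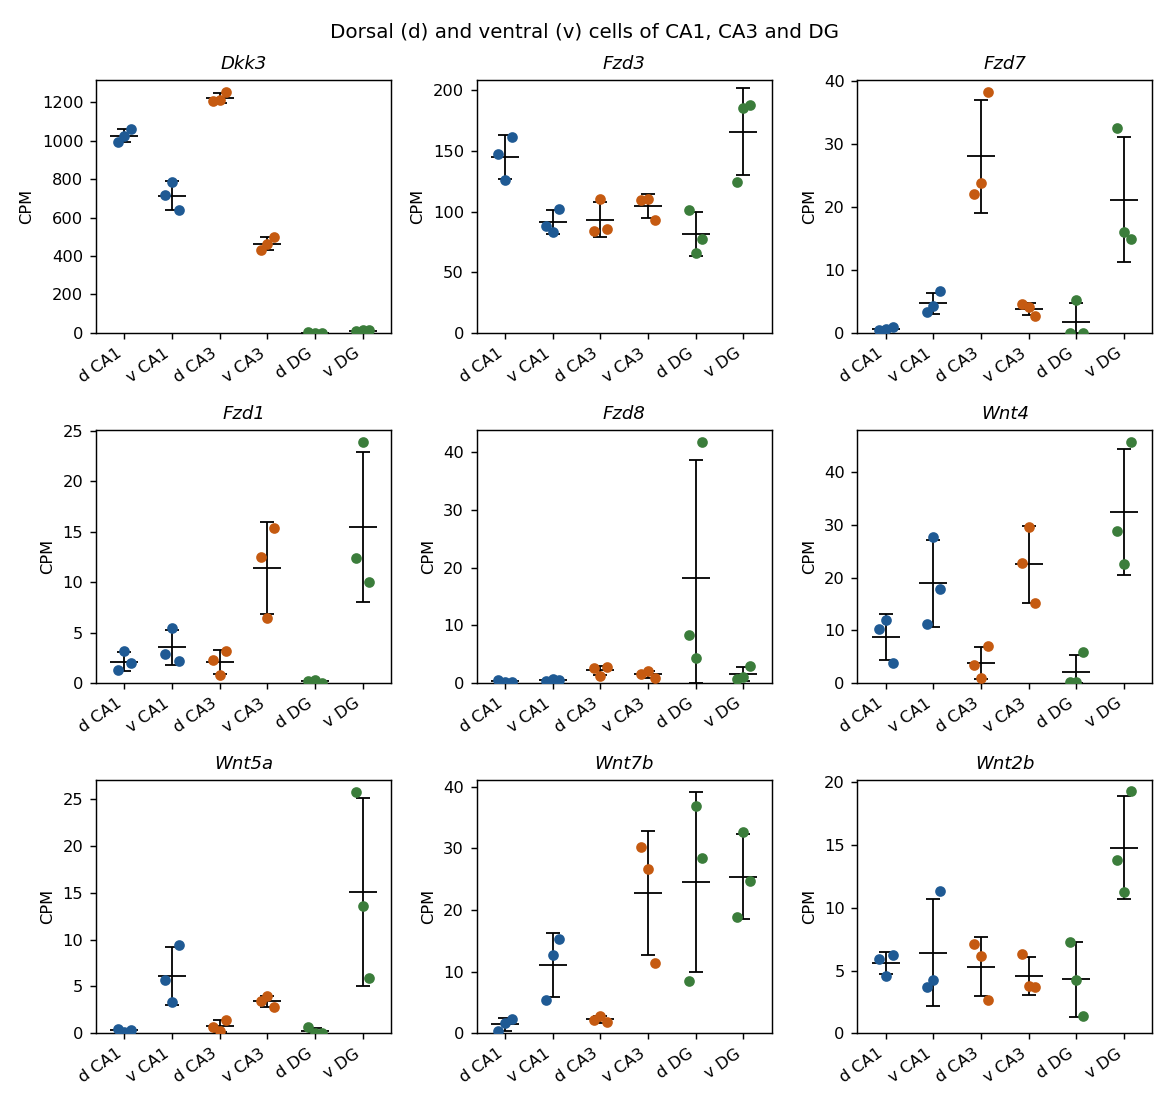
CPM of 9 members in the 3 libraries of dorsal (d) and ventral (v) CA1, CA3 and DG. Points are libraries, the long bar is the mean and the whiskers are 1 SD, cut at 0. Wnt5a is higher in ventral libraries in all 3 regions, Fzd7 is highest in dorsal CA3 and ventral DG, and Dkk3 is near 0 in the DG on this linear scale.

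Wnt5a was the member whose ventral libraries were all above the dorsal ones in CA1 (6.15 against 0.294 CPM by means), CA3 (3.41 against 0.766) and DG (15.1 against 0.209), and it was called in CA1 and DG but not in CA3 (adjusted p = 0.244). Of 21 members at 1 CPM or more in any of these 6 populations, 6 had a higher ventral mean in all 3 regions (Fzd1, Fzd4, Wnt4, Wnt5a, Wnt7a and Wnt7b), against 16.9% of all genes at that level. With the RLE scaling it was 7 of 21 (17.3% of all genes) and without scaling factors 7 of 20 (22.8%). Wnt2 and Sfrp4 had a higher ventral mean in none of the 3 regions, against 15.4% of all genes. These counts rest on means alone and carry no test.

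Between regions, averaged over dorsal and ventral cells, Dkk3 had the smallest adjusted p of the members in both comparisons with the DG. It was at 1025 ± 33.3 and 715 ± 74.4 CPM in dorsal and ventral CA1 and at 2.08 ± 1.37 and 11.9 ± 2.45 in dorsal and ventral DG (CA1 minus DG log2 7.42, SE 0.19, adjusted p = 6.78e-17). Of 23 members 8 were called between CA1 and DG, against 33.1% of all genes, and 9 between CA3 and DG, against 36.5%. These comparisons share the DG libraries. Wnt2 had no read in the 6 DG libraries and was at least 22.9-fold higher in CA1 (adjusted p = 2.36e-05) and at least 7.34-fold in CA3 (2.43e-05). The CA1 bound is of the mean of both groups, 12.8 CPM in dorsal and 0.434 in ventral CA1. The ventral mean was about at the floor of 3 reads in dorsal DG libraries (0.382 to 0.443 CPM). Higher in CA1 than DG were also Dkk2 (at least 4.18-fold, adjusted p = 0.00955), Wnt7a (log2 difference 4.49, adjusted p = 0.0221) and Fzd4 (log2 difference 2.89, adjusted p = 0.0241). Means of Dkk2 were 0.264 CPM in dorsal CA1, below the floor in dorsal DG libraries, and 2.15 in ventral CA1. Means of Wnt7a were 0.848 and 6.42 CPM in dorsal and ventral CA1, against 0 and 1.53 in dorsal and ventral DG. The call of Fzd4 was lost without dorsal CA1 replicate 1 or ventral DG replicate 2.

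Wnt7b was the ligand called higher in the DG against both CA1 and CA3. It was at 8.42, 36.8 and 28.5 CPM in dorsal and 18.9, 32.6 and 24.7 in ventral DG, above the CA1 average (log2 -2.65, SE 0.46, adjusted p = 1.22e-04) and the CA3 average (-1.79, SE 0.44, 0.00327), though ventral CA3 reached similar values. Fzd8 was higher in DG than CA1 (-3.73, adjusted p = 2.06e-04). Fzd5 (-5.56, 0.00243), Wnt16 (-5.95, 0.00408) and Wnt9a (-2.04, 0.03301) were higher in DG than CA3. Wnt16 was at 0, 3.26 and 3.68 CPM in dorsal and 4.24, 1.97 and 2.398 in ventral DG and had no read in dorsal CA3. Wnt10a was at 4.82, 3.04 and 2.15 CPM in dorsal CA3, its highest population, and was not called between regions (CA1 minus CA3 adjusted p = 0.1798). Fzd7 was called higher in DG than CA1 (-1.72, 0.0494), but the call was lost in 15 of 18 omissions, and without dorsal DG replicate 2 the log2 difference reversed to 2.26 (adjusted p = 0.0854).

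Higher in CA3 than DG were Dkk3 (log2 difference 7.23, adjusted p = 8.19e-17), Fzd6 (log2 difference 4.98, adjusted p = 0.0188), Dkk2 (at least 1.09-fold, adjusted p = 0.0341) and Fzd1 (log2 difference 1.54, adjusted p = 0.0354). Fzd1 depends on how groups are averaged, since its mean over both DG groups (7.80 CPM) was above that of CA3 (6.77 CPM) while the fit averages log values. The Dkk2 call was lost in 5 of 18 omissions and with DESeq2, that of Fzd6 without ventral CA3 replicate 3, and those of Fzd1 and Wnt9a in 7 each. Between CA1 and CA3 5 members were called, against 13.5% of all genes. Wnt9a was at 6.03, 16.1 and 4.87 CPM in dorsal CA1 against 0.9104, 0.386 and 0 in dorsal CA3 and at 14.9, 6.23 and 5.54 in ventral CA1 against 2.299, 5.495 and 3.27 in ventral CA3, where the closest libraries nearly met. It was called higher in CA1 (log2 difference 2.82, SE 0.74, adjusted p = 0.0122). The receptors Fzd7 (-2.50, 0.0116), Fzd8 (-2.18, 0.0264) and Fzd6 (-4.09, 0.0469) and the antagonist Sfrp4 (-5.04, 0.0228) were higher in CA3. For Fzd7 this order held in dorsal cells (means of 28.06 CPM in CA3 and 0.702 in CA1). It did not hold in ventral cells (3.82 CPM in CA3 and 4.696 in CA1). Sfrp4 was at 1.77, 4.05 and 0.785 CPM in dorsal and 0.961, 1.24 and 3.92 in ventral CA3, low values that exceeded all 6 CA1 libraries. Of these calls, Sfrp4, Fzd8 and Fzd6 were lost in 6, 7 and 14 of 18 omissions.

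The average of PV and SST interneurons had more of the ligands Wnt5a and Wnt5b, the antagonist Sfrp2 and the receptors Fzd1 and Fzd6 than dorsal CA1 pyramidal cells. It had less Dkk3, Fzd3, Wnt9a, Wnt2 and Wnt11. For Wnt5b and Sfrp2 the average came mostly from PV cells, and SST values reached 0 for both. The bounds on their folds are of that average and not of SST cells. Against dorsal CA1 pyramidal cells, 10 of 24 tested members were called in the average of PV and SST cells, against 32.7% of all genes. Of these 5 were higher in interneurons (17.3% of all genes) and 5 lower (15.4%). The ligand Wnt5a was at 12.8, 18.2 and 36.3 CPM in PV and 2.58, 11.7 and 19.4 in SST libraries, all above dorsal CA1 and 57.1-fold higher by means (log2 difference 5.76, SE 0.82, adjusted p = 1.59e-04). Its paralog Wnt5b was at 11.2, 13.3 and 12.01 CPM in PV and 1.32, 0.138 and 0 in SST libraries and had no read in dorsal CA1, at least 53.3-fold higher (adjusted p = 0.004301). Wnt5b was nearly confined to the PV libraries: the 14 populations other than PV and SST had a highest mean of 0.0574 CPM (ventral CA3). Sfrp2, a secreted Wnt-binding antagonist, was at 3.79, 7.75 and 7.04 CPM in PV and 0.0549, 1.05 and 0 in SST libraries, at least 27.6-fold higher than in dorsal CA1 (adjusted p = 0.0119). The receptor Fzd1 was at 10.3, 10.96 and 18.9 CPM in PV and 9.498, 12.3 and 11.7 in SST libraries (log2 difference 2.54, SE 0.52, adjusted p = 0.00222). Fzd6 was at 1.87, 5.72 and 2.54 and 2.25, 0.551 and 0 CPM, and the dorsal CA1 libraries had 1 read in all, a ratio of pooled reads, scaled to pooled depth, of 178 with a 95% exact binomial interval of 31.8 to 7060 (adjusted p = 0.0198), lost without dorsal CA1 replicate 1 or 2.

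Among the genes lower in interneurons, Dkk3 was at 3.23, 11.6 and 11.97 CPM in PV and 73.3, 76.5 and 72.9 in SST libraries, 24.7-fold below dorsal CA1 (log2 difference -5.30, SE 0.30, adjusted p = 6.85e-08). Fzd3, at 60.2, 31.02 and 39.6 CPM in PV and 42, 31.7 and 54.7 in SST libraries, was 3.35-fold lower (log2 difference -1.72, SE 0.24, adjusted p = 1.55e-04). Wnt2 had no read in PV libraries and was at 0.165, 1.61 and 0 CPM in SST libraries (log2 difference -7.82, SE 1.28, adjusted p = 8.73e-04), Wnt9a was at 0.0797, 0.0369 and 0.0391 and 0.494, 0 and 0.443 CPM (log2 difference -6.05, SE 1.00, adjusted p = 5.22e-04), and Wnt11 was at 0.1595, 0.332 and 0 CPM in PV libraries with no read in SST libraries (log2 difference -6.38, SE 1.47, adjusted p = 0.00706). All interneuron libraries were below all dorsal CA1 libraries for each of these 5.

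Between the interneuron classes, 2 of 15 tested members were called, both higher in SST cells, against 3.51% of all genes. Wnt7a had no read in the 3 PV libraries and was at 9.83, 20.7 and 11.96 CPM in the SST libraries, at least 122-fold higher (adjusted p = 0.00232). Dkk3 was 8.303-fold higher in SST cells (log2 difference -3.07, SE 0.48, adjusted p = 0.00589). Neither call was lost when any 1 of the 6 libraries was left out. Wnt5b (log2 difference 4.64, SE 1.30, adjusted p = 0.0879) and Sfrp2 (log2 difference 4.02, SE 1.51, adjusted p = 0.213) had every PV library above every SST library without passing the threshold. Some lists of markers of other cells summed higher in SST libraries. The oligodendrocyte genes summed to 49.6 to 722 CPM in SST and 5.01 to 33.5 in PV libraries, Cajal-Retzius genes to 72.8 to 125.1 and at most 0.59, microglia genes to 19.1 to 52.2 and at most 5.16, mossy cell genes to 33.4 to 52.05 and at most 11.2, and the 2 pyramidal genes to 17.99 to 59.4 and at most 2.27. Of the 4 Cajal-Retzius genes, Lhx1 and Lhx5 had no read in SST libraries. Lists that overlapped included astrocyte genes (4.45 to 23.7 CPM in SST and 0.391 to 13.6 in PV libraries) and endothelial genes (0.642 to 2.36 and 0.0391 to 5.86). Oligodendrocyte precursor genes also overlapped, at 0 to 0.642 CPM in SST and 0.199 to 3.10 in PV libraries. The part of all these transcripts in the differences was not tested.

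**Figure D5:**
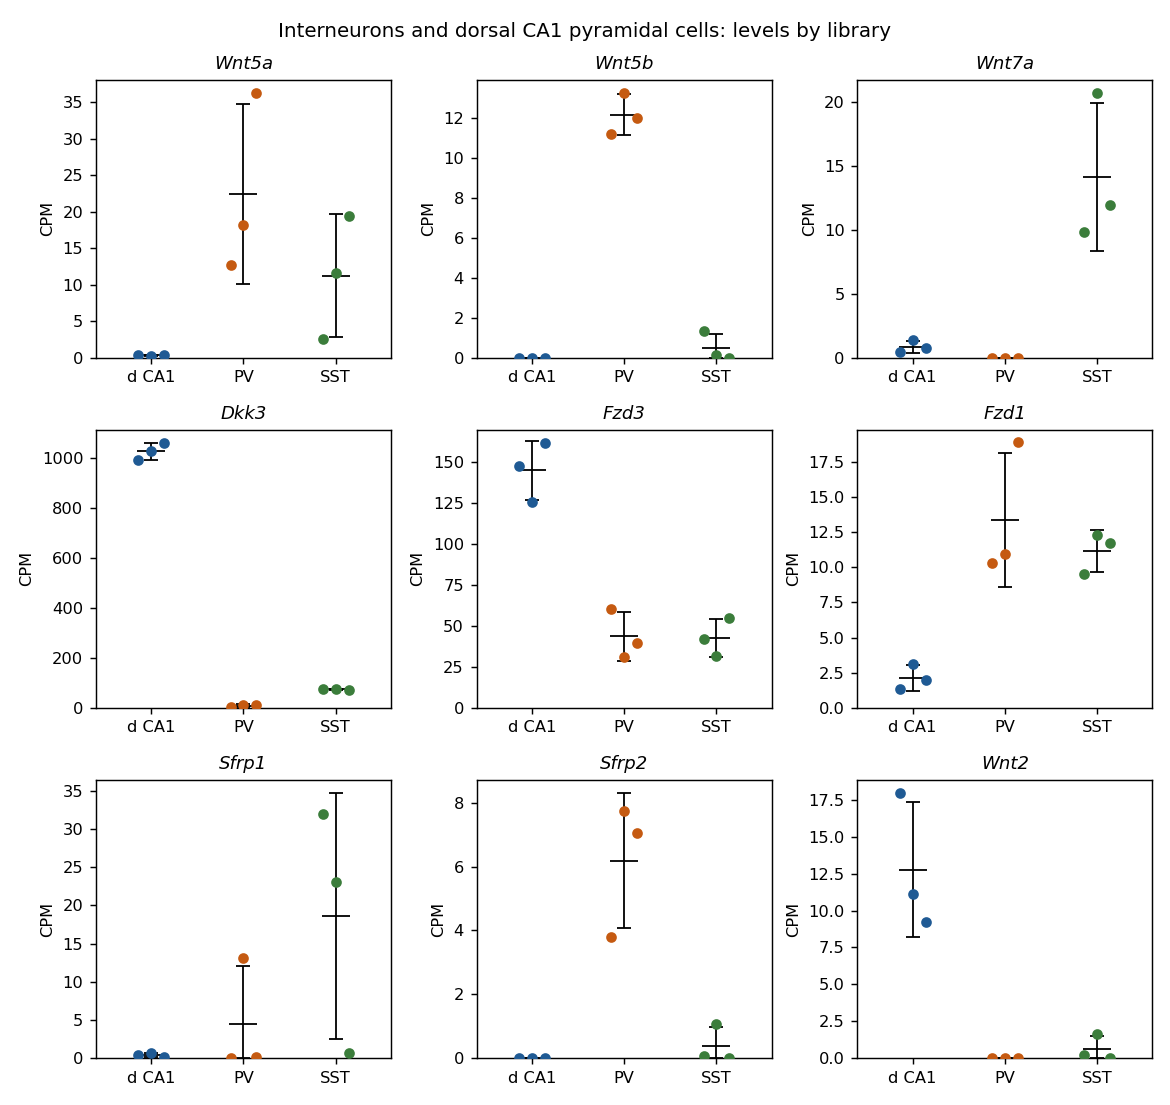
CPM of 9 members in the 3 libraries of dorsal CA1 pyramidal cells (d CA1), PV and SST interneurons. Points are libraries, the long bar is the mean and the whiskers are 1 SD, cut at 0. Wnt5b and Sfrp2 are highest in PV cells, Wnt7a in SST cells, and Dkk3, Fzd3 and Wnt2 in dorsal CA1.

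The rest of the pathway was described with 74 further genes: co-receptors, extracellular modulators, membrane ubiquitin ligases, cytoplasmic and nuclear components, planar polarity genes and common targets. Between dorsal and ventral CA1, 10 of 48 tested were called (15.1% of all genes), 5 in each direction. Rspo2, an R-spondin that strengthens Wnt signals, was at 2.895 ± 1.53 CPM in dorsal and 64.98 ± 26 in ventral cells (log2 difference -4.52, SE 0.47, adjusted p = 2.21e-06). The planar polarity gene Prickle2 (log2 difference 1.23, SE 0.10, adjusted p = 5.73e-08), the Wnt5a receptor Ror1 (log2 difference 3.21, SE 0.53, adjusted p = 2.22e-04) and the common target Myc (log2 difference 4.50, SE 0.75, adjusted p = 2.57e-04) were higher in dorsal cells. Of 6 common targets tested, 1 was called higher in dorsal and 1 in ventral cells. Ror1 was at 15.7 ± 0.578 CPM in dorsal and 1.62 ± 1.198 in ventral CA1, the opposite order to Wnt5a. A relation between these genes was not tested. Between dorsal and intermediate CA1 5 of 48 were called (4.93% of all genes) and between intermediate and ventral CA1 3 of 48 (5.03%), with Rspo2 and Prickle2 in both. In CA3 7 of 62 were called (4.97% of all genes), 3 higher in dorsal and 4 in ventral cells, with Rspo3 at 0.837 ± 0.421 CPM in dorsal and 31.2 ± 9.32 in ventral CA3 (log2 difference -5.19, SE 0.54, adjusted p = 2.18e-06). In the DG 12 of 62 were called (19.4% of all genes), 4 higher in dorsal and 8 in ventral cells, among them Nkd2, an inhibitor that binds Dishevelled, which was at 6.02 ± 3.13 CPM in ventral cells and had no read in dorsal ones (adjusted p = 1.51e-05), and Apc, a scaffold of the β-catenin destruction complex (log2 difference -1.10, SE 0.16, adjusted p = 5.55e-05).

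On the smaller axes of CA1 no pathway gene of 47 was called between proximal and distal cells, against 1.06% of all genes. Between superficial and deep cells it was 1 of 48, against 2.48% (Pygo1, log2 difference -0.67, SE 0.16, adjusted p = 0.0498), and between amygdala- and accumbens-projecting cells 0 of 54, against 0.0231%. Between postsubiculum-projecting and dorsal cells it was 7 of 45, against 10.8%, 5 of them higher in postsubiculum-projecting cells, with Apc first (log2 difference 0.53, SE 0.08, adjusted p = 0.00218) and the co-receptor Lrp6 among them (log2 difference 0.80, SE 0.18, adjusted p = 0.0166). Interactions of region and long axis were called for 4 of 62 between CA1 and CA3 (3.52% of all genes) and for 8 of 62 between CA1 and DG (9.71%). Between regions 14 of 62 were called for CA1 against CA3 (13.5% of all genes), 29 for CA1 against DG (33.1%) and 35 for CA3 against DG (36.5%). The glypican Gpc4, a cell-surface proteoglycan, was at 68.3 ± 26.8 CPM in CA1 and 5 ± 3.68 in CA3 (log2 difference 3.86, SE 0.41, adjusted p = 9.28e-07), and Nkd2 at 3.75 ± 2.41 and 65.5 ± 33.96 (log2 difference -4.16, SE 0.37, adjusted p = 1.39e-07). In interneurons against dorsal CA1 25 of 57 were called (32.7% of all genes), 12 higher and 13 lower, with Ror1 lower (log2 difference -8.54, SE 0.91, adjusted p = 1.42e-05). Between PV and SST cells 1 of 52 was called (3.51% of all genes), the antagonist Sostdc1, at 0.0133 ± 0.02302 CPM in PV and 7.44 ± 3.48 in SST cells (adjusted p = 0.00874).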

How the data were processed

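RNA from 48 libraries of hand-sorted mouse hippocampal neurons, 16 populations of 3, was amplified with Ovation RNA-seq v2, per the labels' protocols. The authors deposited raw read counts per gene and a Cuffdiff table of FPKM values. Per the submitters' processing notes, HTSeq, DESeq2, TopHat2 2.0.6 and Cuffdiff 2.1.1 are listed as tools and mm9 and NCBIM37 as builds, with no roles. Strand in counting is not given in the sources used here, so antisense and overlapping genes cannot be told apart. Libraries are numbered 1 to 3 as in the count table, whose numbering differs from that of the sample titles.

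Counts were fitted with edgeR 4.0.16 in R 4.3.3 (quasi-likelihood F tests, robust, TMM, filterByExpr on the groups fitted), with Benjamini-Hochberg adjustment over all genes tested and a threshold of 0.05. ERCC spike-in and summary lines stayed out. The SE of a log2 difference is its size divided by the square root of F. Dorsal, intermediate and ventral CA1 shared 1 fit, the dorsal and ventral CA1, CA3 and DG groups another of 18 libraries, amygdala- and accumbens-projecting with ventral CA1 another again, PV and SST with dorsal CA1 a further one, and other comparisons, PV against SST included, used their own 6 libraries. CPM levels used TMM over 48 libraries. FPKM served to compare genes and as a check of Wnt7a in CA1. Folds are ratios of mean CPM, or of pooled reads where the lower group had 1 to 3 reads. No other such ratio is given against a mean above 0 and under 3 reads per library. Fitted log2 differences are given there too, and their size rests on those few reads. Floors (3 reads per library) and intervals cover counting error only, since reads carry no molecular identifiers. Alternatives were DESeq2 1.42.0, RLE scaling, no filter on low counts, a replicate block, 1 fit of all 48 libraries and leaving out each library. Every member was accounted for, a member was named as changed only where called, and of the pathway genes at most the 4 with the smallest adjusted p per comparison were named. Members and lists were chosen with earlier results of these data known.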

Additional observations from a re-analysis of the deposited data

Results flagged for a closer look

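Among the members, 6 differences along the long axis differed between regions in a test of the interaction, given as the dorsal minus ventral log2 difference in CA1 minus that in the other region. Against CA3 this was Fzd7 (-5.66, adjusted p = 0.0153). Against the DG they were Dkk3 (2.95, 4.57e-06), Fzd3 (1.63, 9e-04), Fzd1 (5.63, 0.00308), Wnt7b (-2.97, 0.0382) and Fzd8 (-4.38, 0.0387), all by edgeR. Dkk3, Fzd3 and Fzd1 were called in each of 18 omissions of 1 library.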

How the results depend on the processing

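Of 64 calls of a member in a comparison, 64 were kept under RLE scaling, 63 with DESeq2, 60 without the filter on low counts, 58 with the replicate number as a block and 36 in 1 fit of all 48 libraries, while 42 were kept in every omission of 1 library. Same-numbered libraries did not deviate together (correlations from -0.052 to 0.078 over 84 pairs), so the numbers were not taken as pairs. The 6 calls lost with the replicate block included those of Fzd6 in interneurons against dorsal CA1, CA1 against CA3 and CA3 against DG. The others were Fzd7 in CA1 against DG, Fzd8 in the interaction of CA1 with DG and Wnt2b in postsubiculum-projecting against dorsal cells. With this block, 2 members were called between dorsal and intermediate CA1 and 1 between postsubiculum-projecting and dorsal CA1.

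In the fit of all 48 libraries the members called were 1 for dorsal against ventral CA1, 0 for dorsal against intermediate, 0 for intermediate against ventral, 2 for proximal against distal, 0 for superficial against deep, 1 for amygdala- against accumbens-projecting, 1 for postsubiculum-projecting against dorsal, 1 for dorsal against ventral CA3, 2 for CA1 against CA3, 5 for CA3 against DG, 0 and 3 for the interactions of CA1 with CA3 and DG, and 5 for PV against SST. With DESeq2 they were 3 for dorsal against intermediate, 2 for proximal against distal, 2 for superficial against deep, 1 for amygdala- against accumbens-projecting, 7 for CA3 along the long axis, 2 for the interaction with CA3 and 4 for PV against SST. Without the filter they were 3 for dorsal against intermediate, 2 for superficial against deep, 1 for postsubiculum-projecting against dorsal, 4 for CA3 along the long axis and 3 for the interaction with CA3, which RLE scaling made 2. The counts over all genes moved too: with DESeq2 they were 591 against 135 by edgeR for proximal against distal, 199 against 3 for amygdala- against accumbens-projecting, 1158 against 773 for CA3 along the long axis and 1118 against 478 for PV against SST. The DESeq2 counts over all genes were also 880 against 599 for dorsal against intermediate, 736 against 311 for superficial against deep and 855 against 547 for the interaction with CA3. In the fit of all 48 libraries the counts over all genes were 665 against 1837 for dorsal against ventral CA1. They were 354 against 3 for amygdala- against accumbens-projecting and 1120 against 478 for PV against SST. The cause was not tested. A floor of 3 reads per library was used at every depth.

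Leaving out 1 library gave 0 to 1 calls for proximal against distal, 0 to 2 for superficial against deep, 0 to 2 for postsubiculum-projecting against dorsal, 2 to 6 for CA3 and 5 to 8 for DG along the long axis, 2 to 6 for CA1 against CA3, 5 to 11 for CA3 against DG, and 0 to 2 and 3 to 5 for the interactions with CA3 and DG. The log2 difference of Fzd7 between CA1 and DG ranged from -2.01 to 2.26, reversed without dorsal DG replicate 2.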
